A study of Homo sapiens with 9 samples.

Results

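The messenger RNA levels of 10 Wnt/beta-catenin pathway genes were followed in HepG2 cells, a human liver cancer cell line, after knockdown of TRIB3, a pseudokinase gene induced by nutrient stress. The 10 genes were picked by symbol from the 24204 gene symbols of the expression table: CTNNB1, which encodes beta-catenin, the TCF/LEF transcription factor genes LEF1 and TCF7, and AXIN2, NKD1, RNF43, ZNRF3, SP5, TBX3 and LGR5, which are widely used as beta-catenin target genes. All 10 were listed, and 9 of them were expressed highly enough to be tested with the 11265 genes that passed the filter (an FPKM of at least 1 in at least 3 of 9 libraries). LEF1 was below that level and was read from a fit with a looser filter. CTNNB1 is the effector of the pathway rather than a target, and its level is therefore described on its own.

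Cells in every group were infected with a lentivirus for 48 h and then kept under puromycin for 48 h, and second-passage cells were harvested. The lentivirus carried a control short hairpin RNA (shCtrl), or the first or the second hairpin against TRIB3 (shTRIB3-1 and shTRIB3-2), with 3 libraries in each group. All groups carried hairpin vector and antibiotic, so no uninfected cells enter the comparisons, and nothing in the labels says that the libraries of a group came from separate cultures. P-values therefore measure the spread between these libraries, which may be technical. Growth medium is given as high-glucose DMEM with serum in the labels, whereas the study's methods describe RNA from cells deprived of glutamine. The study's discussion, without naming these libraries, reports altered repair gene expression after TRIB3 depletion in cells that were not deprived of glutamine. The medium at harvest is therefore uncertain for all 3 groups.

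In the canonical Wnt pathway, beta-catenin is marked for destruction by a complex built on AXIN and APC proteins unless a Wnt ligand binds Frizzled and LRP receptors at the cell surface. Beta-catenin that escapes destruction enters the nucleus and joins TCF/LEF factors on DNA, and many of the genes it switches on encode inhibitors of the same pathway. In the liver, this pathway is best known for maintaining the gene program of hepatocytes around the central vein, and CTNNB1 is often mutated in liver cancer. HepG2 cells are known to carry a heterozygous in-frame deletion in CTNNB1 that stabilises the protein. Gene-level values do not separate the alleles, and protein was not measured in these libraries.

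The hairpin target sequences are shown because they define the groups. Both match exons of TRIB3 on the plus strand of GRCh38, and capitals are not used because no base within them is singled out. The target of shTRIB3-1 lies in the coding part of exon 2 (chr20:388072-388092) and that of shTRIB3-2 in the coding part of exon 3 (chr20:391473-391493). In the GENCODE v44 transcripts, a full match of either sequence was found in 1 gene, TRIB3, and in 0 of the 10 genes.
shTRIB3-1: tggatgacaacttagataccg
shTRIB3-2: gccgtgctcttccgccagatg

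SP5, which encodes a zinc-finger transcription factor, is the gene of the set whose RNA fell furthest, and its promoter is shown for its TCF/LEF motifs. The 250 bases upstream of its start (chr2:170715087-170715336, plus strand, RefSeq GRCh38.p14) are printed with the motifs in capitals. On the gene strand, CTTTGAT begins 109 bases before the start, and CTTTGAA reads on the opposite strand (TTCAAAG as printed) from 148 and from 84 bases before it.
SP5 promoter: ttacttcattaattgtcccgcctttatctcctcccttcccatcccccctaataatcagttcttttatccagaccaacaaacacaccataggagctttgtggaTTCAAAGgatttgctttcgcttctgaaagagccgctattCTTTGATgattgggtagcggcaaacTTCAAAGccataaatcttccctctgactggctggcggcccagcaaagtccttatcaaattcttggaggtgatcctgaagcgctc

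The search covered CTTTGAA or CTTTGAT, and likewise CTTTGTA or CTTTGTT, on both strands, and no match overlapped another within the SP5 window. Promoter sequence was at hand for 5 of the 10 genes (SP5, CTNNB1, LEF1, TCF7 and RNF43), in 7 windows because TCF7 and RNF43 have more than 1 annotated start. The window at the downstream start of TCF7 (chr5:134123368-134123617) held 1 motif, CTTTGTT on the opposite strand, 50 bases before the start. No motif was found in the other windows, which says only that these letters are not in these 250 bases. Among 35116 promoter windows of the same length, 12% held at least 1 motif and 0.122% held at least 3. A pattern of 4 runs of at least 3 G with spacers of 1 to 7 bases, a common search form for G-quadruplex DNA, was read in the CTNNB1 window and the upstream TCF7 window and in 23.5% of all promoters. A letter match is a description of the sequence, and binding was not measured here.

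**Figure D1:**
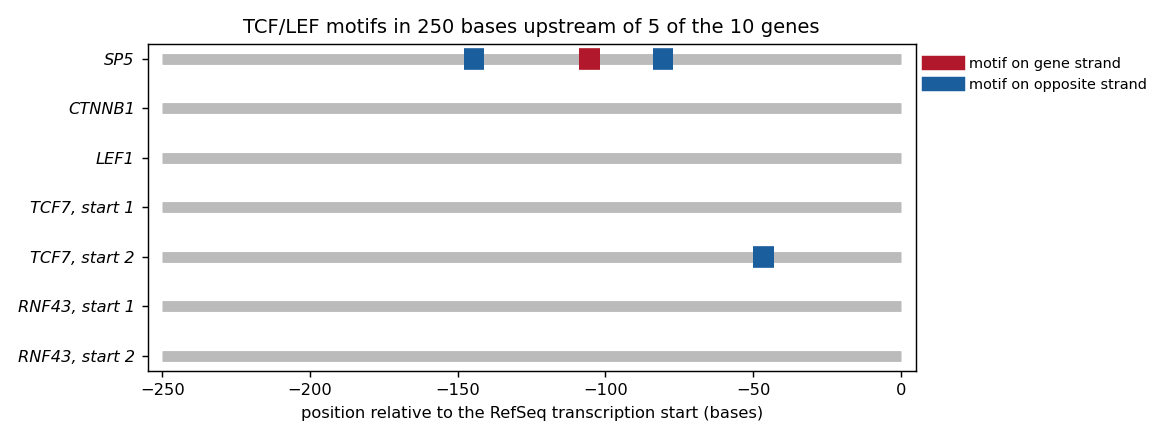
Positions of TCF/LEF motifs in the 250 bases upstream of RefSeq transcription starts, in bases from the start, for the 7 windows of 5 genes. Red blocks mark motifs read on the gene strand and blue blocks those on the opposite strand; SP5 carried 3, the second TCF7 start 1, and the other windows 0.

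The 9 libraries held 34206726 to 36311029 fragments, as worked out from the FPKM values. TRIB3, the targeted gene, stood at 67.9, 65.8 and 66.6 FPKM in the shCtrl libraries, at 34.1, 32.7 and 34.0 FPKM with shTRIB3-1, and at 20.6, 20.7 and 20.4 FPKM with shTRIB3-2. Every hairpin library was below every control library, and shTRIB3-2 left less TRIB3 RNA than shTRIB3-1 (log2 difference -0.71, limma adjusted p = 9.54e-09). All 10 hepatocyte marker genes were tested. Their sum was 8391 to 9043 FPKM in shCtrl, 8610 to 9049 with shTRIB3-1 and 10825 to 11138 with shTRIB3-2. PTPRC, which marks blood cells, was listed at 0 in the shCtrl libraries but above 0 in some library of each hairpin group. Of 10 markers of stromal, immune and endothelial cells, 2 (CD68 and ACTA2) passed the filter, and the list summed to 87.8 to 99.5, 75.6 to 81.1 and 89.1 to 90.6 FPKM in the same order of groups.

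Knockdown of TRIB3 was accompanied by lower RNA of most of the 10 genes. Among those tested, AXIN2, which rose with shTRIB3-1, and RNF43, not called with shTRIB3-1 (log2 fold change 0.02), departed from this. With shTRIB3-1, 7 of the 9 tested genes fell (CTNNB1, LGR5, NKD1, SP5, TBX3, TCF7 and ZNRF3) and AXIN2 rose, where 41.5% of all tested genes fell and 32.9% rose. With shTRIB3-2, 8 of 9 fell (all but AXIN2) and 0 rose, where the shares over all tested genes were 40.5% and 35.4%. RNF43 was among these 8 at -0.10 (limma adjusted p = 0.0304), a call that several alternatives lost. The median log2 fold change of the 9 genes was -0.26 with shTRIB3-1 and -0.38 with shTRIB3-2, against -0.06 and -0.03 over all tested genes. The 3 shCtrl libraries serve both comparisons, so the counts are not independent of each other. Changes were mostly moderate: a fall of more than 1 on the log2 scale was seen for SP5 with shTRIB3-2, as for 6.27% of all tested genes, and for 0 of the 9 with shTRIB3-1, where 6.1% of tested genes passed. No gene of the 9 rose by more than 1, where 5.39% of all tested genes did with shTRIB3-1 and 6.06% with shTRIB3-2.

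**Figure D2:**
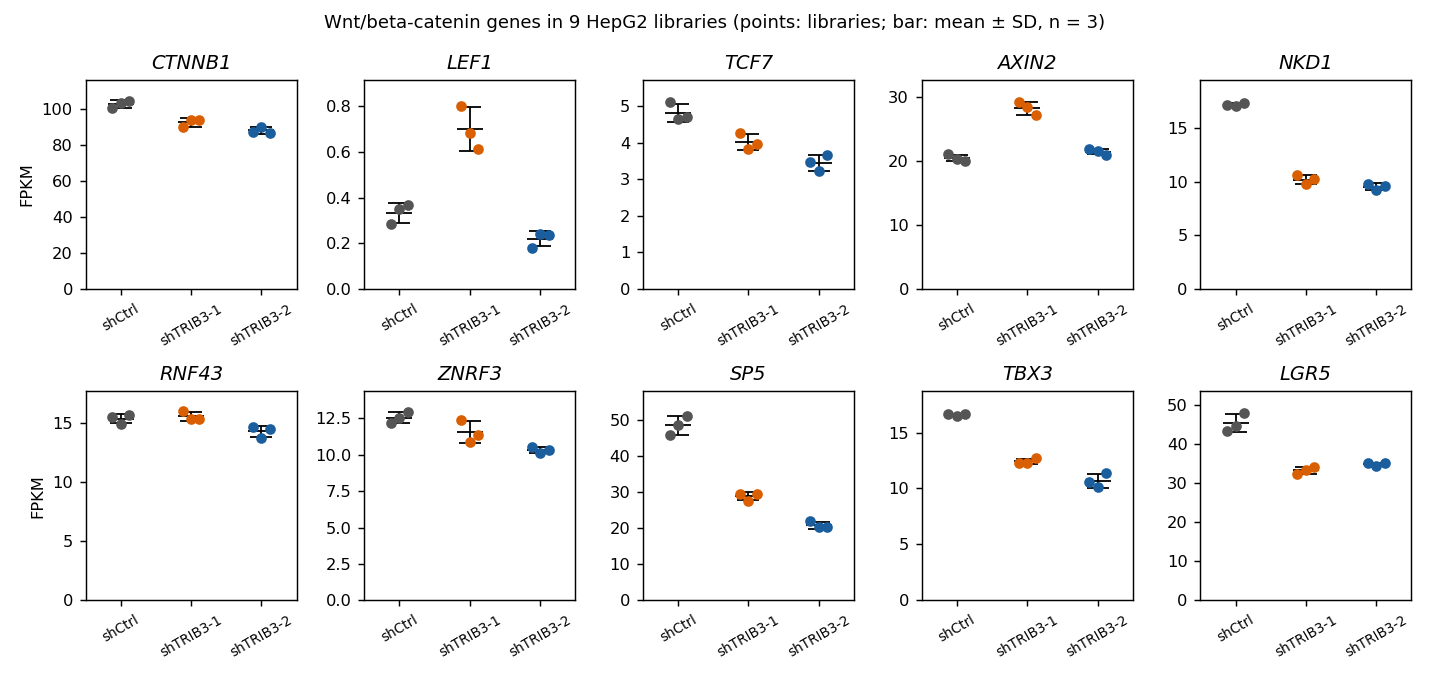
FPKM of the 10 genes in each of the 9 libraries, with the axis of each panel starting at 0; points are libraries, and bars give the mean ± SD of 3. SP5, NKD1, TBX3 and LGR5 sit lower in all hairpin libraries than in all shCtrl libraries, while AXIN2 and LEF1 are highest with shTRIB3-1.

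These counts stand beside other shifts of the same cells. All 10 genes of a proliferation list fell with both hairpins, from a summed 590 to 595 FPKM in shCtrl to 153 to 154 with shTRIB3-1 and 88.0 to 89.4 with shTRIB3-2. The share of FPKM-derived fragments on 13 mitochondrially encoded genes was 5.57% ± 0.463 in shCtrl, 6.60% ± 0.374 with shTRIB3-1 and 6.78% ± 0.389 with shTRIB3-2 (SD, n = 3). Their part in the changes of the Wnt genes was not tested. In bulk RNA, fewer cells that express a gene and less of its RNA per cell cannot be told apart.

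CTNNB1 was the most abundant of the 10 genes in every group and changed little. It was measured at 101, 104 and 104 FPKM in shCtrl, at 90.0, 94.1 and 94.2 FPKM with shTRIB3-1, and at 87.7, 90.2 and 87.0 FPKM with shTRIB3-2. Every hairpin library was below every control library, at 90.1% of the control mean with shTRIB3-1 and 85.8% with shTRIB3-2. The log2 fold change was -0.15 (95% interval -0.22 to -0.08, adjusted p = 7.71e-04) with shTRIB3-1 and -0.22 (-0.29 to -0.15, adjusted p = 3.06e-05) with shTRIB3-2. The shTRIB3-1 call was lost when each library was centred on its median (log2 fold change -0.07, adjusted p = 0.136). Between the hairpins the libraries overlapped and the difference was -0.07 (-0.14 to -0.00, adjusted p = 0.0773), which passed the threshold in the fit on fragment numbers (adjusted p = 0.0184) and without shTRIB3-1 replicate 1 (adjusted p = 0.0409).

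TCF7 and LEF1 encode 2 of the DNA-binding partners of beta-catenin, and their RNA moved apart with shTRIB3-1. TCF7 gave 5.11, 4.66 and 4.71 FPKM in shCtrl, 4.27, 3.82 and 3.97 with shTRIB3-1, and 3.47, 3.24 and 3.66 with shTRIB3-2. The groups did not overlap, and the level was lowest with shTRIB3-2 (log2 fold change -0.47, adjusted p = 5.17e-05), then with shTRIB3-1 (-0.26, adjusted p = 0.00496). The difference between the hairpins was -0.21 (adjusted p = 0.0248), and this call was lost after rescaling to TPM (adjusted p = 0.0692) and without any of 4 hairpin libraries (shTRIB3-1 replicates 1 and 3, shTRIB3-2 replicates 1 and 2; adjusted p from 0.0507 to 0.0984).

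LEF1 was the least expressed of the set, with 23 to 102 fragments per library, and the most with shTRIB3-1. Its fragments numbered 38, 47 and 49 in shCtrl, 102, 87 and 79 with shTRIB3-1, and 23, 31 and 31 with shTRIB3-2, which is 0.334, 0.699 and 0.220 FPKM on average. All shTRIB3-1 libraries lay above all others, and all shTRIB3-2 libraries below the controls. In the fit with all genes above 0 in at least 3 libraries, LEF1 rose by 0.88 on the log2 scale with shTRIB3-1 (SE 0.160, adjusted p = 0.00139), and shTRIB3-2 was lower than shTRIB3-1 by a log2 difference of -1.32 (adjusted p = 3.86e-04). The lower value with shTRIB3-2 against shCtrl (-0.44, adjusted p = 0.0457) did not hold in 9 of its alternatives, among them the fit on fragment numbers (adjusted p = 0.0736) and the omission of control replicate 2 (0.114) or 3 (0.134), of shTRIB3-1 replicate 2 (0.0613) or of any shTRIB3-2 library (0.0575 to 0.142).

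The feedback inhibitors of the pathway did not move together. AXIN2, a scaffold of the destruction complex and the most commonly used readout of beta-catenin activity, was measured at 21.0, 20.3 and 20.0 FPKM in shCtrl, 29.1, 28.4 and 27.1 FPKM with shTRIB3-1, and 21.8, 21.5 and 21.0 FPKM with shTRIB3-2. The shTRIB3-1 libraries stood apart above all others, while those of shTRIB3-2 overlapped with shCtrl. AXIN2 rose by 0.46 on the log2 scale with shTRIB3-1 (95% interval 0.38 to 0.54, adjusted p = 2.63e-07). With shTRIB3-2 the value was 0.07 (-0.01 to 0.15, adjusted p = 0.119), although it passed the threshold when libraries were centred on their medians (0.12, adjusted p = 0.0237) and in the fit on fragment numbers (0.10, adjusted p = 0.0273). The hairpins differed by -0.39 (adjusted p = 5.86e-06), and this difference held in every alternative run for it, from -0.42 to -0.36. In GENCODE v44, 25.3% of the exon bases of AXIN2 are shared on the same strand with the annotated gene ENSG00000266076, which was not analysed here.

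NKD1, an inhibitor that binds Dishevelled, fell with both hairpins. It gave 17.2, 17.0 and 17.3 FPKM in shCtrl, 10.6, 9.78 and 10.2 with shTRIB3-1, and 9.82, 9.23 and 9.60 with shTRIB3-2. The hairpin libraries reached 59.4% and 55.6% of the control mean and overlapped with each other. The log2 fold changes were -0.75 (SE 0.043, adjusted p = 1.09e-08) and -0.84 (SE 0.043, adjusted p = 3e-09), held in every alternative run. Between the hairpins the difference was -0.09 (95% interval -0.19 to -0.00, adjusted p = 0.092), and it passed the threshold in 4 alternatives, including the fit on fragment numbers (-0.12, adjusted p = 0.00652).

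RNF43 and ZNRF3 encode related ubiquitin ligases that remove Frizzled receptors from the cell surface, and both changed little. RNF43 was between 15.0 and 15.7 FPKM in shCtrl, 15.4 and 16.0 with shTRIB3-1, and 13.8 and 14.7 with shTRIB3-2. Its log2 fold change with shTRIB3-1 was 0.02 (95% interval -0.07 to 0.10, adjusted p = 0.701), a value whose sign changed in 3 alternatives and that passed the threshold under median centring (0.10, adjusted p = 0.0283). With shTRIB3-2 it was -0.10 (adjusted p = 0.0304), a call lost under median centring, in the fit on fragment numbers, and without any 1 of 3 libraries (shCtrl replicates 1 and 3, shTRIB3-2 replicate 2; adjusted p from 0.0738 to 0.108). Of the exon bases of RNF43, 68.4% are shared with ENSG00000285897 on the same strand, also not analysed here, so its level is uncertain where counting divided or dropped shared fragments.

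ZNRF3 ranged from 12.2 to 12.9 FPKM in shCtrl, 10.9 to 12.4 with shTRIB3-1 and 10.1 to 10.5 with shTRIB3-2. The shTRIB3-2 libraries lay below all others (log2 fold change -0.28, adjusted p = 2.65e-04). With shTRIB3-1 the libraries overlapped with the controls, and the value of -0.12 (adjusted p = 0.0434) lost its call in 10 alternatives, among them median centring (-0.04, adjusted p = 0.458) and the omission of any 1 of 6 libraries (shCtrl replicates 2 and 3, shTRIB3-1 replicates 2 and 3, shTRIB3-2 replicates 1 and 3; adjusted p from 0.0534 to 0.175).

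Among the transcription factor targets, SP5 showed the largest fall of the 9 tested genes with shTRIB3-2. It was measured at 45.7, 48.7 and 51.1 FPKM in shCtrl, 29.6, 27.6 and 29.4 FPKM with shTRIB3-1, and 22.0, 20.5 and 20.2 FPKM with shTRIB3-2. The 3 groups were fully separate, at 59.5% of the control mean with shTRIB3-1 and 43.1% with shTRIB3-2. The log2 fold changes were -0.75 (95% interval -0.85 to -0.64, adjusted p = 3.34e-08) and -1.21 (-1.32 to -1.11, adjusted p = 3.6e-10), and the hairpins differed by -0.46 (adjusted p = 1.21e-05). SP5 was highest in shCtrl and lowest with shTRIB3-2, the order in which TRIB3 itself stood. The group means of CTNNB1, NKD1, TCF7 and ZNRF3 stood in that order too. A link of the SP5 fall to the level of TRIB3 or to the promoter motifs was not tested.

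TBX3, a T-box transcription factor gene, was arranged in the same order with smaller steps. It gave 16.6, 16.5 and 16.6 FPKM in shCtrl, 12.3, 12.3 and 12.7 with shTRIB3-1, and 10.6, 10.1 and 11.4 with shTRIB3-2. No libraries overlapped between groups. The log2 fold changes were -0.41 (adjusted p = 3.96e-06) and -0.63 (adjusted p = 7.09e-08), with a difference between the hairpins of -0.22 (adjusted p = 0.00191).

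LGR5, a receptor for R-spondins that strengthens Wnt signalling at the membrane, fell with both hairpins. Its levels were 43.4, 44.6 and 47.9 FPKM in shCtrl, 32.4, 33.2 and 34.1 with shTRIB3-1, and 35.0, 34.4 and 35.0 with shTRIB3-2. All hairpin libraries were below all controls (log2 fold changes -0.44, adjusted p = 4.91e-07, and -0.38, adjusted p = 1.95e-06). The shTRIB3-2 libraries all lay above those of shTRIB3-1, but the difference of 0.07 (95% interval -0.02 to 0.15, adjusted p = 0.18) did not pass the test.

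**Figure D3:**
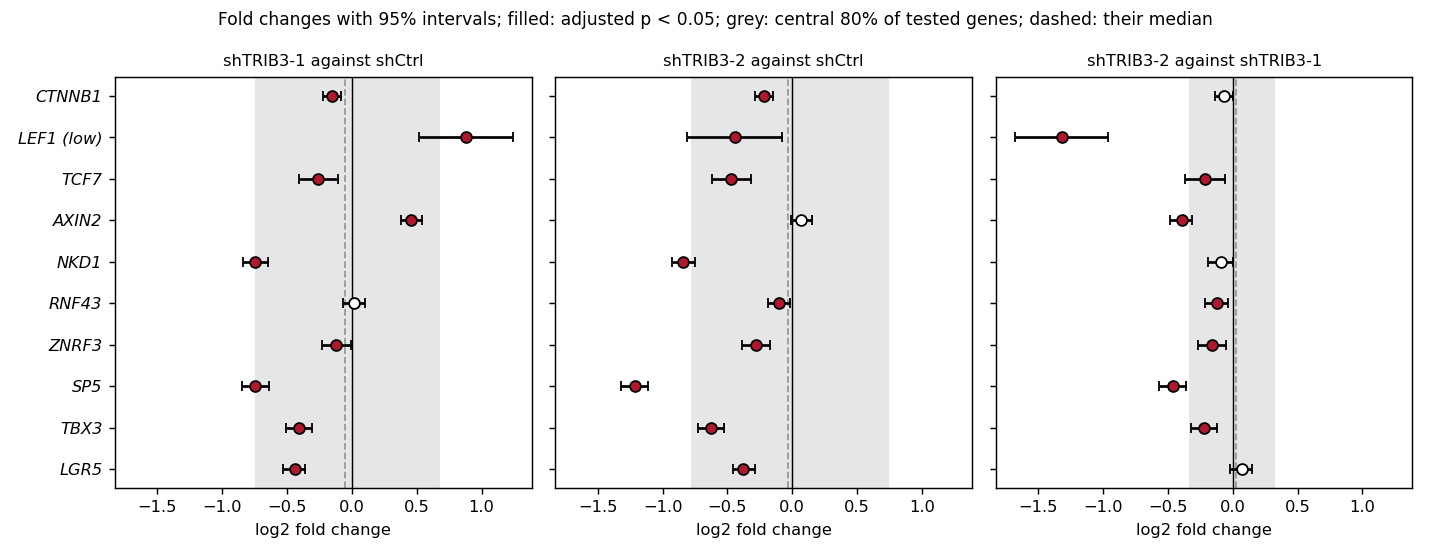
Log2 fold changes of the 10 genes in the 3 comparisons with 95% intervals; filled points passed an adjusted p of 0.05, the grey band holds the central 80% of tested genes and the dashed line is their median. LEF1 comes from the fit with the looser filter. SP5 lies below the band with shTRIB3-2 (-1.21), and AXIN2 is the tested gene above 0 that was called with shTRIB3-1 (0.46).

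The direct comparison of the hairpins sets their group means against each other, while the shCtrl libraries still enter the shared estimate of the spread. The second hairpin left lower RNA of 6 of the 9 tested genes (AXIN2, RNF43, SP5, TBX3, TCF7 and ZNRF3), where 20.7% of all tested genes were lower, and higher RNA of 0 of 9, where 25.1% were higher. None of the 9 differed by more than 1 on the log2 scale, as 1.79% (lower) and 0.284% (higher) of all tested genes did. The median difference over the 9 genes was -0.16, against 0.03 over all tested genes. The number lower ranged from 3 to 8 over the processing alternatives and from 3 to 7 when 1 library was left out. It was 3 (AXIN2, SP5 and TBX3) after rescaling to TPM and also 3 without shTRIB3-2 replicate 2. Without shTRIB3-1 replicate 1, the calls of RNF43, TCF7 and ZNRF3 were lost as well (adjusted p from 0.0891 to 0.0984), and that of ZNRF3 was lost without shTRIB3-2 replicate 3 (0.0512). CTNNB1, NKD1 and LGR5 were the 3 tested genes that did not pass.

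Levels per length placed the genes in nearly the same order in all groups. In shCtrl, CTNNB1 was followed by SP5 and LGR5, whose libraries overlapped, and then by AXIN2, NKD1, TBX3, RNF43, ZNRF3, TCF7 and LEF1, each apart from the next. With shTRIB3-1, SP5 and AXIN2 overlapped at 28.8 and 28.2 FPKM below LGR5, and NKD1 had moved below RNF43, TBX3 and ZNRF3. With shTRIB3-2, AXIN2 and SP5 again overlapped, at 21.4 and 20.9 FPKM, and NKD1 kept its place between ZNRF3 and TCF7. FPKM divides by 1 gene length, which for NKD1 was 18635 bases and for SP5 3200 bases.

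AXIN2 stood apart from the other tested genes of the set, so the genes with the most similar pattern were sought among all tested genes. LEF1, which was also highest with shTRIB3-1, did not pass the filter and was not in this search. Likeness was the root mean square difference of log2 values over the 9 libraries after centring each gene on its shCtrl mean, a description over libraries that share the group structure. The closest were POP1 (0.0452), NUDC (0.0495), UBB (0.0544), SLC38A6 (0.0552) and AHSA1 (0.0566). Of the other 8 tested genes of the set, RNF43 came closest (0.277) and ranked 2767 of 11264, and SP5 was farthest (1.02).

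Other genes of the pathway were read from lists, and each count below stands beside the shares over all tested genes, 32.9% higher and 41.5% lower with shTRIB3-1 and 35.4% higher and 40.5% lower with shTRIB3-2. With 4 to 14 tested genes a list, the counts describe those genes only. Of 18 listed ligand and ligand-secretion genes, 4 passed the filter, and of these WNT7B, WNT9A and WNT11 were below 1 FPKM in shCtrl, so that they passed through the hairpin libraries and their number says nothing about direction. WNT11, a ligand mostly linked to signalling without beta-catenin, went from 0.323, 0.461 and 0.379 FPKM in shCtrl to 4.91, 4.53 and 4.98 with shTRIB3-1 and 6.01, 5.40 and 6.48 with shTRIB3-2. WNT9A and WNT7B reached means of 1.90 and 2.34 FPKM with shTRIB3-2, from 0.177 and 0.407 in shCtrl. The whole list summed to between 6.18 and 6.45 FPKM in shCtrl, 12.5 and 14.5 with shTRIB3-1, and 16.4 and 19.2 with shTRIB3-2.

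Of 7 tested receptor genes, 5 fell and 0 rose with shTRIB3-1, against 41.5% and 32.9% of all tested genes, and with shTRIB3-2 5 fell and the Frizzled genes FZD5 (0.34) and FZD6 (0.22) rose (list medians -0.43 and -0.37). LGR4, the close relative of LGR5, fell as well (log2 fold changes -0.44 and -0.37, adjusted p = 1.82e-07 and 8.78e-07). The co-receptor gene LRP5 changed by -0.45 and -0.57, and RYK, a Wnt-binding receptor with a kinase-like domain, by -0.65 and -0.50, each past the threshold.

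Of 14 tested genes of Dishevelled and the destruction complex, 3 rose and 4 fell with shTRIB3-1, fewer than the 32.9% and 41.5% of all tested genes, and 6 rose and 5 fell with shTRIB3-2 (medians -0.02 and 0.01). Lower RNA was called with both hairpins for AMER1 (-0.77 and -1.04), a membrane-associated scaffold of the complex, CSNK1A1 (-0.48 and -0.60), the kinase that primes beta-catenin, and DVL3 (-0.42 and -0.45), a Dishevelled gene. TNKS2 (0.29 and 0.44), CSNK1D (0.28 and 0.44) and GSK3B (0.20 and 0.14), of the same list, were called higher with both hairpins. Among 12 tested nuclear cofactor genes, 4 rose and 6 fell with shTRIB3-1, and 4 rose and 3 fell with shTRIB3-2, without a common direction. BCL9L (0.72 and 0.51) and BCL9 (0.49 and 0.34), bridges from beta-catenin to PYGO proteins, rose, as did TCF7L2 (0.42 and 0.24), while the corepressor gene TLE1 fell (-0.43 and -0.31).

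Secreted inhibitors included the most abundant Wnt pathway gene read here, DKK1, which blocks LRP5 and LRP6. DKK1 was measured at 398, 425 and 429 FPKM in shCtrl, 248, 240 and 252 with shTRIB3-1, and 173, 179 and 169 with shTRIB3-2. Its groups were fully separate, and it fell by 0.76 on the log2 scale with shTRIB3-1 and by 1.26 with shTRIB3-2 (adjusted p = 2.91e-09 and 2.88e-11), against 0.75 and 1.21 for the fall of SP5. NOTUM, a secreted enzyme that inactivates Wnt ligands and is itself a known target gene, gave 72.0, 70.8 and 70.7 FPKM in shCtrl, 39.5, 33.7 and 38.6 with shTRIB3-1, and 33.8, 34.0 and 35.1 with shTRIB3-2 (log2 fold changes -0.94 and -1.05, adjusted p = 6.87e-09 and 1.91e-09). DKK4 and KREMEN1 were also called lower with both hairpins. The other tested inhibitor genes, KREMEN2 (1.96 and 1.14), which encodes a DKK receptor, and SFRP4 (0.82 and 1.07), had mean levels below 1 FPKM in shCtrl and passed the filter through the hairpin libraries, so their direction is not a result about the list.

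Of 12 tested target genes outside the set, 4 rose and 5 fell with shTRIB3-1, close to the 32.9% and 41.5% of all tested genes, and 2 rose and 8 fell with shTRIB3-2, against 35.4% and 40.5% (medians 0.01 and -0.30). TNFRSF19, a TNF receptor family gene, fell with both hairpins (-1.08 and -1.20), as did the G1 cyclin gene CCND1 (-0.99 and -0.95), and SOX4, a SOX-family transcription factor gene, rose (1.14 and 0.89). MYC moved in opposite directions with the hairpins, at 26.1, 24.6 and 23.8 FPKM in shCtrl, 28.9, 27.5 and 27.0 with shTRIB3-1, and 17.5, 16.4 and 16.9 with shTRIB3-2. Its log2 fold changes were 0.16 (adjusted p = 0.00507) and -0.55 (adjusted p = 1.7e-07). Among 7 tested genes of the pericentral liver program, 3 rose and 3 fell with each hairpin: GLUL, the glutamine synthetase gene, fell (-0.45 and -0.52), and OAT (0.42 and 0.66) and AHR (0.53 and 0.47) rose. Of 6 tested periportal genes, 2 rose and 3 fell with each hairpin.

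**Figure D4:**
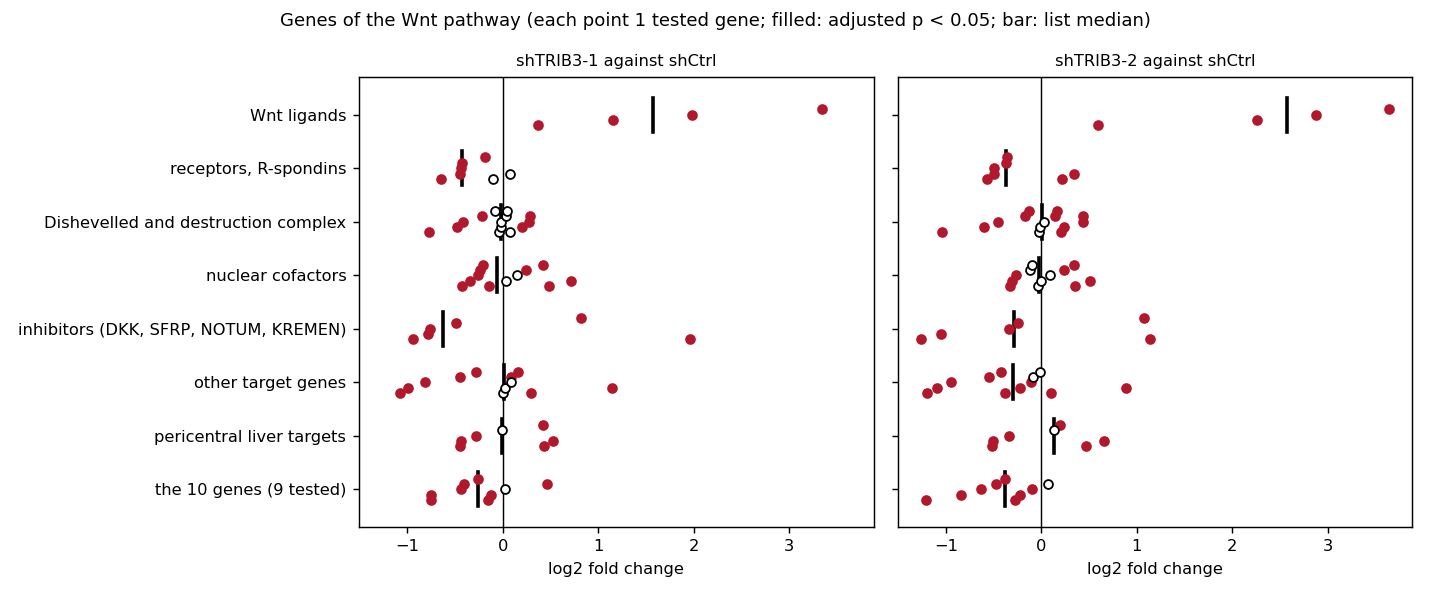
Log2 fold changes of tested genes of 7 pathway lists and of the 9 tested genes of the set, for each hairpin against shCtrl; each point is 1 gene, filled where the adjusted p was under 0.05, and the bar is the list median. Points of the receptor list lie mostly left of 0, those of the destruction complex and nuclear cofactors on both sides, and the ligands on the right passed the filter largely through the hairpin libraries.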

How the data were processed

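RNA-seq libraries of HepG2 cells were grouped by their labels. FPKM values, 1 column per library, were computed and deposited by the authors. STAR and the GRCh38 genome are named in the study's methods. The submitters' processing notes name HTSeq and R 3.2.0 without a role, and strand use in counting is not given in the sources used here. FPKM corrects depth and length by a single factor each, so a shift of abundant genes moves all others. Fragment numbers were worked out from the FPKM values, with 172769 of 172769 nonzero values giving an integer to within 0.02, and intervals from them cover counting error only.

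Values were taken as log2(FPKM + 0.1), which understates changes of low genes, and fitted with limma 3.58.1 (R 4.3.3) on 3 group means over all 9 libraries, with a mean-variance trend, two-sided p-values and Benjamini-Hochberg adjustment over 11265 genes. "Higher" or "lower" means an adjusted p under 0.05. Genes of the 7 Wnt pathway lists were named where their mean change was among the 3 largest of genes called alike with both hairpins. MYC, CCND1, GLUL and TCF7L2 were named regardless. FZD5, FZD6, TNKS2, CSNK1D, GSK3B, DKK4, KREMEN1 and SFRP4 were named after their values were seen. The fit was tested on simulated data in which the same spread was set for every gene. It recovered 70 of 94 changes of 0.4 on the log2 scale and 101 of 101 changes of 1. The alternatives were other pseudocounts, filters and scalings, voom on fragment numbers with library sizes scaled by TMM, a replicate block and leaving out each library. Hairpin target positions and exon overlaps were read with GENCODE v44, and promoter and motif positions with RefSeq GRCh38.p14. The genes and lists were chosen with earlier results of these data known.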

Additional observations from a re-analysis of the deposited data

Results flagged for a closer look

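For 7 of the 10 genes, the effects of the hairpins differed by the direct test of shTRIB3-2 against shTRIB3-1 (limma, Benjamini-Hochberg adjusted p over all genes of the fit). AXIN2 had a log2 difference of -0.39 (adjusted p = 5.86e-06), having risen with shTRIB3-1 and not passed with shTRIB3-2. SP5 differed by -0.46 (adjusted p = 1.21e-05) and TBX3 by -0.22 (adjusted p = 0.00191), both lower with each hairpin than in shCtrl. LEF1 differed by -1.32 (adjusted p = 3.86e-04) at 23 to 102 fragments per hairpin library. TCF7 (-0.21, adjusted p = 0.0248), ZNRF3 (-0.16, adjusted p = 0.0222) and RNF43 (-0.12, adjusted p = 0.0249) were close to the threshold. Over all tested genes, 25.1% were higher and 20.7% lower with shTRIB3-2 by the same test.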

How the results depend on the processing

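Each gene-level result (10 genes in 3 comparisons) was recomputed under up to 18 alternatives, giving 531 values. Of these, 482 kept direction and side of the threshold, 37 lost a call, 9 gained one and 3 reversed. The reversals were RNF43 with shTRIB3-1, at -0.04 after rescaling to TPM and from -0.00 (without shCtrl replicate 2 or shTRIB3-1 replicate 1) to 0.03 when 1 library was left out. SP5, TBX3, LGR5 and NKD1 against shCtrl, with either hairpin, lost no call. The number of higher genes was 2 with shTRIB3-1 under the looser filter and under median centring, and 1 with shTRIB3-2 under median centring and voom. The number of lower genes with shTRIB3-1 was 5 under median centring, 5 to 7 over the processing alternatives and 6 to 7 when 1 library was left out. With shTRIB3-2 these ranges were 7 to 9 and 7 to 8. The number lower between the hairpins was 3 after rescaling to TPM. It was 3 to 8 over the processing alternatives and 3 to 7 when 1 library was left out. Between the hairpins, 1 gene passed a log2 difference of 1 under the looser filter. With a pseudocount of 1, the pathway lists had 3 genes past that fold with shTRIB3-1 and 0 between the hairpins. Causes were not tested. Whether replicate numbers pair the libraries was not settled. Correlations of same-numbered libraries were near 0 (-0.0742 to 0.0933), but the own number was best in 12 of 18 comparisons. With the replicate block, 7 genes fell and 1 rose with shTRIB3-1, and the LEF1 call with shTRIB3-2 was lost (-0.44, adjusted p = 0.0805), the only call of the 10 genes that the block changed. LEF1, at 23 to 102 fragments, is limited by counting.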
